A study of Mus musculus with 3 samples.

Results

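The interleukin 2, 7 and 6 receptor chains described here are 10 genes: Il2ra, Il2rb, Il2rg, Il4ra, Il7r, Il9r, Il15ra, Il21r, Il6ra and Il6st. Binding of the HMG-box transcription factor Tcf1 (encoded by Tcf7) at these genes was read from a peak list for conventional CD4 T cells and a peak list for regulatory T cells (Treg cells). A peak belonged to a receptor gene if its midpoint lay in the gene's span on mm10, or if that gene was the nearest protein-coding gene within 100 kb. By this rule 10 of 4519 conventional peaks and 8 of 3402 Treg peaks lay at the 10 genes, out of 21883 protein-coding genes that could have received a peak.

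Both cell populations were sorted from spleens of Foxp3-Cre-GFP mice aged 8 to 10 weeks and labelled wild type. Conventional cells were TCRb+ CD4+ CD25- and negative for the Foxp3-Cre-GFP reporter, and Treg cells were TCRb+ CD4+ CD25+ and positive for it. The tissue label of the conventional sample calls the cells effector CD4 T cells, whereas its title and source call them conventional. Chromatin was precipitated with an antiserum against Tcf1, with 1 library for each population, and how many mice a library came from is not stated in the labels. The remaining library of the study, from Tcf1-deficient CD4 T cells of CD4-Cre+ Tcf1 fl/fl mice, was not analysed here. CD25 is the product of Il2ra, so a member of the family was itself part of the sort.

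The receptors fall into 2 families that share chains. The common gamma chain, encoded by Il2rg, joins Il2ra and Il2rb to form the high-affinity IL-2 receptor, and pairs with the products of Il4ra, Il7r, Il9r, Il21r and, with Il2rb, Il15ra for their own cytokines. It signals through the kinases Jak1 and Jak3 to Stat5, Stat6 and Stat3. IL-6 binds the Il6ra chain, which recruits gp130, the product of Il6st, and signals mainly through Stat3. In CD4 T cells, IL-7 maintains naive and memory cells, IL-2 maintains Treg cells, and IL-6 and IL-21 act in helper differentiation. Treg cells are known for high CD25 and low IL-7 receptor on their surface.

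Each deposited list gives chromosome, start and end of a peak and no height, fold or p-value, so the depth behind a peak is unknown and width is the only measure of a peak's size. Median width was 428 bp in the conventional list and 366 bp in the Treg list. With 1 library per cell type there was no replicate error and no test between cell types, and what follows are values from 2 lists. A peak that is missing from a list may have fallen short of the authors' calling or filtering threshold. Peak lists hold no expression, so the sort could not be checked by transcript levels. For reference, conventional peaks lay at 3 of 6 T cell marker genes and Treg peaks at 4 of 6, beside 16.3% and 12.3% of all protein-coding genes. Cd4 and Cd3g had no peak in either list. Treg marker genes, which include Il2ra, carried a conventional peak at 4 of 6 and a Treg peak at 3 of 6. Foxp3 and Nrp1 had none in either list. CD8 genes carried them at 1 of 2 and 0 of 2, and the 4 B cell and 4 myeloid genes carried none in either list. Most protein-coding genes have no peak, so such small sets without a peak give no check of the sort.

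Of the 10 receptor genes, 6 had a conventional peak, beside 16.3% of all protein-coding genes, and 6 had a Treg peak, beside 12.3%. The conventional and the Treg list each had a peak at 5 of them (Il2ra, Il4ra, Il21r, Il6ra and Il6st), beside 8.17% of all genes. Il7r had a conventional peak and no Treg peak, as did 8.1% of all genes, and Il2rb had a Treg peak and no conventional peak, as did 4.13%. Il2rg, Il9r and Il15ra had no peak in either list. The comparison with all genes is not matched on activity in T cells, and most protein-coding genes have no peak. The median receptor gene had 1 peak in each list, and the median protein-coding gene had 0.

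**Figure D1:**
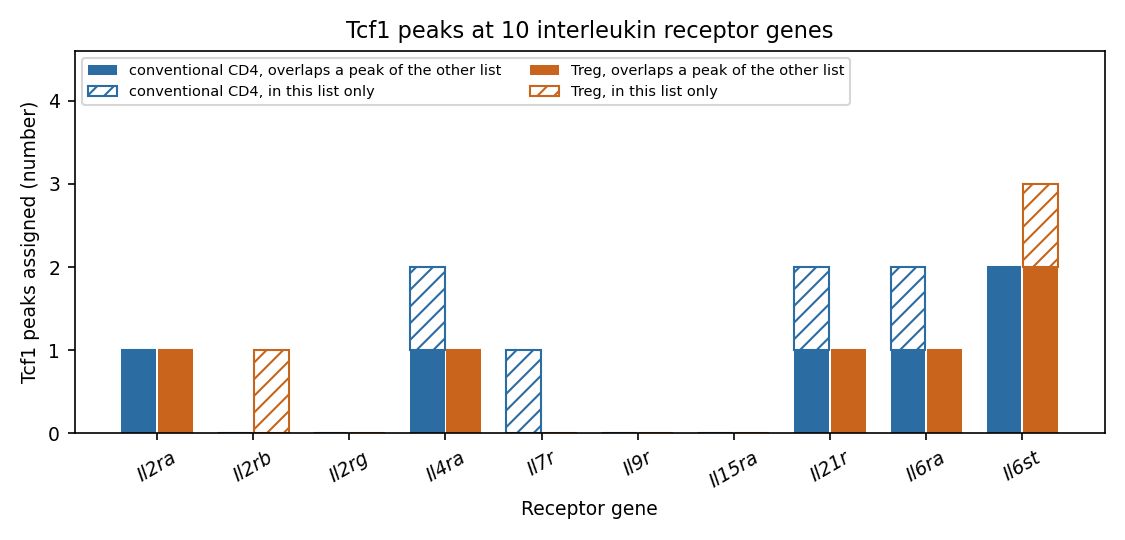
Number of Tcf1 peaks assigned to each of 10 receptor genes (vertical axis) in the conventional CD4 list (blue) and the Treg list (orange); filled bars are peaks that overlap a peak of the other list and hatched bars are peaks in that list only. By the 100 kb rule Il6st has the most, with 2 conventional and 3 Treg peaks, and Il2rg, Il9r and Il15ra have none.

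Among the chains of the IL-2 receptor, Il2ra carried a peak in both lists. Il2ra (chromosome 2, 11642792 to 11693194, plus strand) encodes CD25, the chain that gives the receptor its high affinity. Its conventional peak, chr2:11653255-11653853, was 599 bp wide and its Treg peak, chr2:11653331-11653711, was 381 bp wide and lay wholly within the conventional peak. Their midpoints were 33 bp apart and lay 10762 and 10729 bp downstream of the gene start, inside the gene span. By width the conventional peak stood at percentile 80.2 of its list and the Treg peak at percentile 54.9 of its own, and widths are not comparable between lists as a measure of binding.

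Il2rb (chromosome 15, 78479256 to 78511621) encodes the beta chain, which signals for both IL-2 and IL-15. It had a Treg-only peak inside the gene, chr15:78494609-78495038, 430 bp wide and 15567 bp from the nearer gene end. The nearest conventional peak had its midpoint 33474 bp away from it, and 16676 bp outside the Il2rb span in the neighbouring gene C1qtnf6. That conventional peak and another in C1qtnf6 were present in both lists. Within 100 kb of the Il2rb span lay 4 conventional and 5 Treg peaks in all, of which the Treg peak in the gene was assigned to Il2rb and the others to Tmprss6, C1qtnf6 and Rac2. At percentile 66.4 by width, the Il2rb peak was the wider of the 2 Treg-only peaks in the family.

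Il2rg (chromosome X, 101264385 to 101268255, minus strand), the shared gamma chain, received no peak in either list. With a span of 3871 bp it is the shortest of the 10 genes, and its neighbours Gm614 and Med12 lie 393 and 5836 bp away, so little sequence can be assigned to it. The nearest peaks, chrX:101332557-101333163 (conventional) and chrX:101332674-101333185 (Treg), overlapped each other, lay 64605 and 64674 bp from Il2rg, and were assigned to Nlgn3.

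Il4ra and Il21r, which encode chains of the IL-4 and IL-21 receptors, are neighbours on chromosome 7, and their peaks are described together. Il4ra (125552271 to 125579474, plus strand) had 2 conventional peaks and 1 Treg peak. Il21r (125603252 to 125634397, plus strand), 23778 bp further on, also had 2 and 1. Each gene had 1 pair of overlapping peaks and 1 conventional-only peak. Having at least 2 conventional peaks was seen for 4 of the 10 receptor genes (Il4ra, Il21r, Il6ra and Il6st), beside 2.81% of all protein-coding genes.

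The pair with the wider peaks lay inside Il21r. The conventional peak, chr7:125607360-125608031, was 672 bp wide, and the Treg peak, chr7:125607335-125607836, was 502 bp wide, with 477 bp in common. Their midpoints lay 4266 and 4156 bp downstream of the Il21r start site. These widths stood at percentiles 87 and 79.4 of their lists. The other pair lay between the genes, chr7:125588639-125589066 (conventional, 428 bp) and chr7:125588671-125588933 (Treg, 263 bp). It was 9378 and 9328 bp past the end of Il4ra and 14400 and 14450 bp before the Il21r span, and its assignment depended on the rule. By span the nearer gene was Il4ra, but the nearest start site was that of Il21r, at 14577 and 14627 bp, which would give Il21r 3 conventional and 2 Treg peaks and Il4ra 1 and 0.

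The conventional-only peaks at Il4ra and Il21r were narrow. The peak inside Il4ra, chr7:125561495-125561807, was 313 bp wide (percentile 13.2) and lay 9380 bp from the gene start, and the nearest Treg midpoint was 27151 bp away. The peak past Il21r, chr7:125635536-125635835, was 300 bp wide (percentile 8.12), near the smallest conventional width of 279 bp, and lay 1288 bp beyond the gene span and 5269 bp from Gtf3c1.

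Il7r (chromosome 15, 9506159 to 9529941, minus strand) encodes the IL-7 receptor alpha chain. It had 1 conventional-only peak, chr15:9528648-9528969, which was 322 bp wide (percentile 16.7). Its midpoint lay 1068 bp downstream of the start site, closer than that of any other peak of the family. No Treg peak was listed near the gene: the nearest had its midpoint 490152 bp outside the span and was assigned to Ranbp3l. Of all protein-coding genes, 24.3% were as far or farther from a Treg peak, and the median distance was 160216 bp. A further conventional-only peak lay 45190 bp upstream of Il7r, 3062 bp from Spef2, to which it was assigned by span. By nearest start site it went to Il7r, which then had 2 conventional peaks and still no Treg peak.

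No genome sequence was used here, so the letters under the peaks are not shown. Promoter windows of 300 bases (250 before to 50 after a start site, RefSeq, GRCm38.p6) were matched for 9 of the 10 receptor genes, with 2 windows for Il15ra. Il2rb has no entry. None of the member peaks overlapped such a window, of its own or of any other protein-coding gene. Over the chromosomes with windows, 40.1% of the conventional and 33.9% of the Treg peaks overlapped at least 1. The gap between peak and own promoter window was smallest for Il7r, at 858 bp, and next for Il21r, at 3882 bp (conventional) and 3857 bp (Treg). These 2 windows are shown because a peak lies close to them, and the second Il15ra window because it alone among the 10 held a core TCF/LEF motif. They are written 5′ to 3′ on the strand of the gene, from chr15:9529827-9530126 (minus), chr7:125603179-125603478 (plus) and chr2:11705462-11705761 (plus). Capitals mark every match, on either strand, to CTTTGA or CTTTGT (TCF/LEF core), CCGGAA (ETS core), TGTGGT (RUNX core) and TTCNNNGAA (STAT), none of which overlapped each other here.
Il7r: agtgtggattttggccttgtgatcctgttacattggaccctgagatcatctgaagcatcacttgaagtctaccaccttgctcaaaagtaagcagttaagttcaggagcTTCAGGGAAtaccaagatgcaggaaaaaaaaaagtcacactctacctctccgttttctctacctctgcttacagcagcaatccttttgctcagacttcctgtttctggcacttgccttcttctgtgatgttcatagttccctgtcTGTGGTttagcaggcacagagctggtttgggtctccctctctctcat
Il21r: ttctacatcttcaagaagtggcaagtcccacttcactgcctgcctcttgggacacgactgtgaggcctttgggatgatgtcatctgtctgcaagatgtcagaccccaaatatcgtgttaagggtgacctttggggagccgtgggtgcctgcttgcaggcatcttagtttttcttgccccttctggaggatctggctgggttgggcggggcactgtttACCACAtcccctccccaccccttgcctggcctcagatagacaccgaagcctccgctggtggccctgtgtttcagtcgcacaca
Il15ra: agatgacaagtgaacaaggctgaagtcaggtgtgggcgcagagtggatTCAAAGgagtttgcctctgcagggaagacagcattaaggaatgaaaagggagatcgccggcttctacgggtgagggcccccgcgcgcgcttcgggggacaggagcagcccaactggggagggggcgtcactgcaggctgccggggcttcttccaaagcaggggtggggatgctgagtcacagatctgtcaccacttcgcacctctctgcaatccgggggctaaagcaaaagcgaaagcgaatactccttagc

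In the Il7r window the capitals are a STAT match that begins at -142 and a RUNX match that begins at 4, counted from the start site as 1. The Il21r window held a RUNX match on the reverse strand at -33. The Il15ra window held the TCF/LEF core on the reverse strand at -202. Over the 10 windows of the family, CTTTGA or CTTTGT occurred in 1, against 28.3% of 21262 windows of protein-coding genes. TGTGGT occurred in 4 (Il2rg, Il7r, Il9r and Il21r) against 15% of all windows, CCGGAA in 3 (Il2rg, Il6st and the first Il15ra window) against 18.7%, and TTCNNNGAA in 1 against 7.69%. These are matches of letters in short windows and not measured sites.

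Il9r and Il15ra had no peak. Il9r (chromosome 11, 32187544 to 32205283, minus strand), the private chain for IL-9, was the only member with no peak of either list within 100 kb. Its nearest conventional and Treg peaks lay 175568 and 125470 bp away, both assigned to Nsg2. Il15ra (chromosome 2, 11705172 to 11733985, plus strand), the chain that binds and presents IL-15, begins 11978 bp after the end of Il2ra. The nearest peaks to it were those inside Il2ra, at 51618 bp (conventional) and 51651 bp (Treg). The adjacent genes for CD25 and the IL-15 receptor alpha chain thus had 1 pair of overlapping peaks between them, inside Il2ra.

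**Figure D2:**
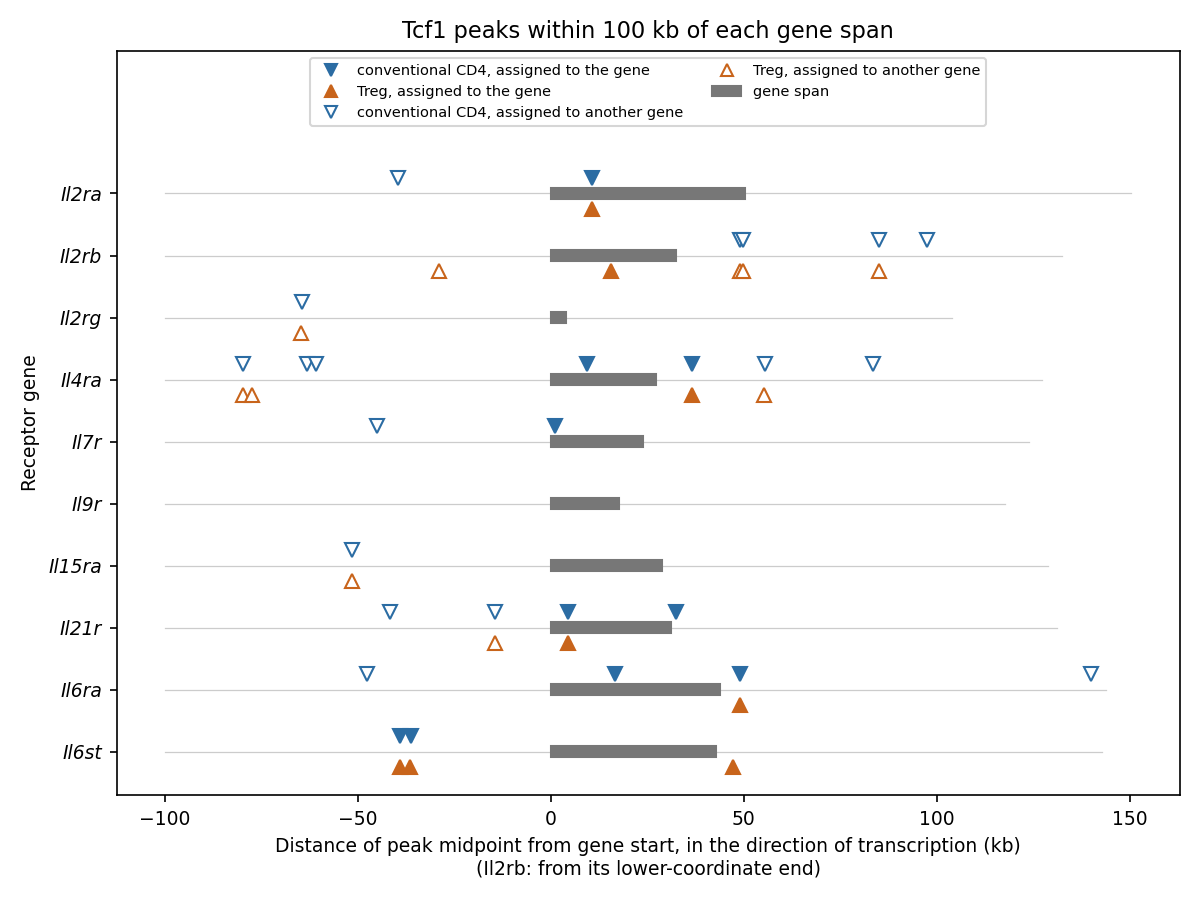
Position of every Tcf1 peak within 100 kb of each receptor gene, as the distance of its midpoint from the gene start in kb (horizontal axis; for Il2rb from its lower-coordinate end). Grey boxes are gene spans, blue triangles above are conventional peaks, orange triangles below are Treg peaks, and open triangles are peaks assigned to another gene. The Il7r peak lies closest to a gene start, the Il6st pair lies upstream of the gene, and Il9r has no peak in reach.

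Both chains of the IL-6 receptor carried peaks. Il6ra (chromosome 3, 89869324 to 89913196, minus strand), which binds IL-6, had 2 conventional peaks and 1 Treg peak. Its overlapping pair, chr3:89864080-89864444 (conventional, 365 bp) and chr3:89864120-89864469 (Treg, 350 bp), shared 325 bp. It lay 5062 and 5030 bp beyond the 3′ end of Il6ra, and 5416 and 5448 bp from She on the other side, so that the genes on either side were nearly equally close. By nearest start site the pair went to She, which left Il6ra with 1 conventional and 0 Treg peaks. The conventional-only peak, chr3:89896433-89896831, was 399 bp wide (percentile 42.2) and lay inside Il6ra, 16564 bp from its start, with the nearest Treg midpoint 32338 bp away.

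Il6st (chromosome 13, 112464070 to 112506860, plus strand), which encodes gp130, had the most peaks of the family by the 100 kb rule, 2 in the conventional and 3 in the Treg list. That rank rests on the upstream peaks: with a limit of 20 kb, or counting peaks within 10 kb of the span, Il6st had 0 conventional peaks and 1 Treg peak, fewer than Il4ra, Il21r and Il6ra with 2 and 1 each. By nearest start site Il21r, with 3 and 2, equalled its total. At least 3 Treg peaks were assigned to 0.388% of all protein-coding genes, and at least 2 to 1.69%. Its 2 overlapping pairs lay side by side upstream of the gene. The farther pair was chr13:112424566-112425253 (conventional, 688 bp) and chr13:112424645-112425115 (Treg, 471 bp). The nearer pair was chr13:112427418-112427946 (529 bp) and chr13:112427423-112427931 (509 bp), with midpoints 5 bp apart. The pairs were 2773 bp apart in the conventional and 2797 bp apart in the Treg list, and lay 36388 to 39190 bp before the gene start. The gap to the next gene upstream, Ankrd55, is 80065 bp, and the farther pair was 40904 bp (conventional) and 40875 bp (Treg) from Ankrd55, so it lay almost midway between the genes. These peaks were at percentiles 88.3 and 71.2 by width in the conventional list and 74.8 and 80.2 in the Treg list. The other Treg peak, chr13:112510987-112511279, was Treg-only, 293 bp wide (percentile 24.5) and lay 4273 bp past the end of Il6st and 10798 bp from Il31ra. No gene of the 2 other gene lists described below had the same numbers of conventional, Treg and overlapping peaks as Il6st, and 11 protein-coding genes had them, Il6st included.

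Of the conventional peaks at the receptor genes, 6 of 10 shared 1 bp or more with a Treg peak, which is 60% (95% Clopper-Pearson interval 26.2% to 87.8%, counting error only), beside 42.8% of the whole list. Of the Treg peaks 6 of 8 overlapped a conventional peak, or 75% (34.9% to 96.8%), beside 56.9%. Both intervals include the value of the whole list. Both shares count the same 6 pairs, and peaks of 1 library are not replicates, so a difference from the whole list was not tested. The 6 pairs were closely aligned. Their midpoints lay 5 to 110 bp apart (median 32.5 bp), beside a median of 59 bp over 1935 pairs in the whole lists. The conventional peak was the wider in 6 of 6 pairs, by 15 bp at Il6ra to 218 bp at Il2ra, and in 69.8% of all pairs.

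Peaks found in the conventional list only were narrow members of that list. The 4 of them (Il4ra, Il7r, Il21r and Il6ra) measured 300 to 399 bp, all under the median of 428 bp, and 61.5% of all conventional-only peaks were also under it. The 6 overlapping conventional peaks measured 365 to 688 bp, and 1 of them, at Il6ra, was under the median. In the Treg list the 2 unshared peaks, 293 bp at Il6st and 430 bp at Il2rb, fell within the range of the 6 overlapping peaks, 263 to 509 bp.

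**Figure D3:**
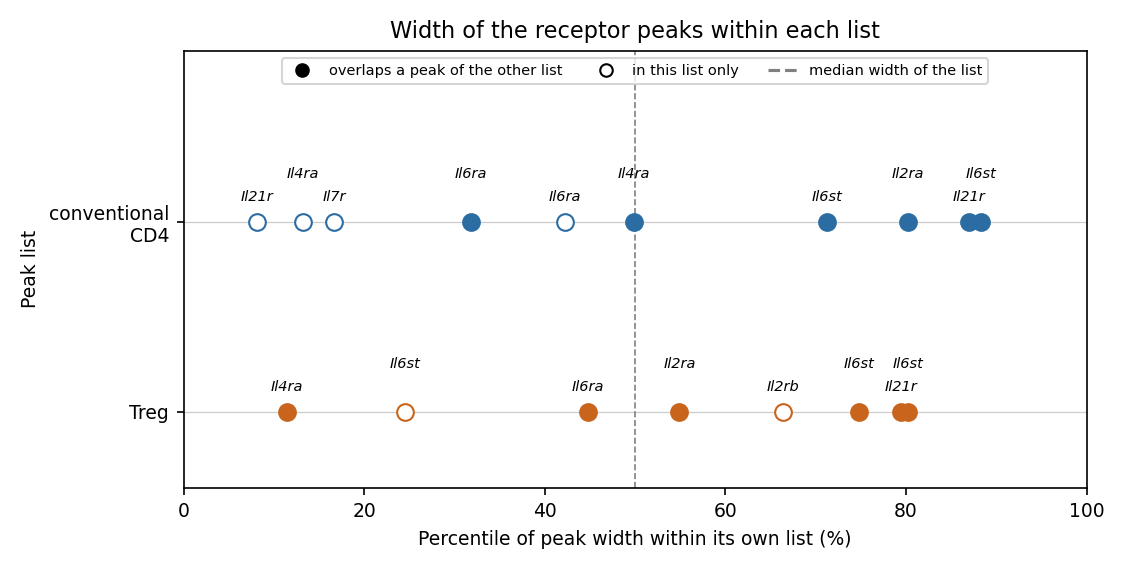
Percentile of each receptor peak's width within its own list (horizontal axis, %) for the conventional CD4 list (above) and the Treg list (below), with the gene named at each point; filled points overlap a peak of the other list, open points do not, and the dashed line is the list median. The 4 open conventional points lie below the median, from percentile 8.12 to 42.2, and the 2 open Treg points lie on either side of it.

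The receptor peaks lay away from gene ends. None of the 10 conventional and 8 Treg peaks had its midpoint within 1 kb of either end of a protein-coding gene, beside 48.1% of the conventional and 41.8% of the Treg list. Inside the span of a receptor gene lay 5 of the 10 conventional peaks (50%, beside 59.5% of the list inside a protein-coding span) and 3 of the 8 Treg peaks (37.5%, beside 53.8%). The other 5 in each list lay outside, 2 upstream (both at Il6st) and 3 downstream. The conventional-only peaks at Il7r and Il21r, 1133 and 1288 bp from an end of their gene spans, were just outside the 1 kb limit, so the count of 0 in the conventional list depends on that limit. The gene table used here has no exons or introns, so peaks inside a gene were not placed further.

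Genes of the same signalling pathway were then counted from a list of 35 ligands, partner chains, kinases, Stat factors and feedback regulators. A peak in either list was present at 13 of them, beside 20.4% of all protein-coding genes. Conventional peaks lay at 10 of 35 (28.6%) and Treg peaks at 11 of 35 (31.4%), with 8 in both. The shares of all protein-coding genes were 16.3%, 12.3% and 8.17%. Ligand genes had peaks at 2 of 13 members, Il9 and Il21, in each list (15.4%), close to the shares of all genes. Il21 had 2 conventional peaks and 1 Treg peak. Its receptor Il21r had the same numbers, as did Il4ra, Il6ra, Jak1 and Stat3, so the match is not particular to this pair. Partner chains had peaks at 2 of 7: Crlf2, which pairs with Il7r to bind TSLP, had 1 conventional and 2 Treg peaks, and Il27ra, which pairs with gp130, had 1 conventional peak and 0 Treg peaks.

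Downstream of the receptors, Jak1 had 2 conventional peaks and 1 Treg peak and Jak2 had 0 and 1, while Jak3, the kinase bound by the gamma chain, and Tyk2 had none. Among the Stat genes, Stat3 had 2 conventional peaks and 1 Treg peak, Stat5b had 1 and 2, and Stat6 had 1 and 0. Stat5a had none. Feedback regulators had a conventional peak at 2 of 6 and a Treg peak at 4 of 6, beside 16.3% and 12.3% of all protein-coding genes. Of these, Socs1 and Socs3 had 3 conventional and 2 Treg peaks each, the most of the pathway list, and Cish and Ptpn2 had 0 conventional peaks and 1 Treg peak each. At least 3 conventional peaks were assigned to 0.832% of all protein-coding genes.

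A second list held 30 receptor chains of other cytokines. Conventional peaks lay at 6 of 30 (20%) and Treg peaks at 7 of 30 (23.3%), with 5 in both, beside 16.3%, 12.3% and 8.17% of all protein-coding genes. The conventional share was thus close to that of all genes, and the shares for the 10 receptor genes stood above those of the other receptors. No test was made of that difference, because the genes were grouped with earlier results of these data known. The members of the second list with the most peaks were Ifnar1, a chain of the type I interferon receptor, with 2 conventional and 2 Treg peaks, all overlapping, and Il20rb with 1 and 3. Csf2ra and Il3ra, the private chains for GM-CSF and IL-3, had 2 and 1 each. Of the peaks at these 30 genes, 2 of 9 conventional and 3 of 10 Treg peaks lay within 1 kb of a gene end, and in the pathway list 7 of 17 and 7 of 15 did. Those shares were 22.2%, 30%, 41.2% and 46.7%, and for the 10 receptor genes they were 0 in both lists.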

How the data were processed

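Tcf1 binding was measured by ChIP-seq in sorted CD4 T cells, with 1 conventional and 1 Treg library. The deposited files are peak lists, made per sample by the authors, with 3 columns of positions and no other values. FastQC, Bowtie2 2.3.4.1, MACS2 2.1.1 and mm10 are named, without roles, per the submitters' processing notes. The files are named as filtered, with the filter and any control library not given in the sources used here. Per the labels' protocols, immunoprecipitated DNA was amplified by PCR before sequencing. Width can vary with depth, which is unknown.

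Positions are printed counted from 1. Peaks were joined to the spans of 21883 protein-coding genes of a RefSeq table (GRCm38.p6, the assembly of mm10), all 10 members matched by symbol, with strand and start sites from its promoter windows. A peak of 1 list overlapped the other at 1 bp or more, and was in 1 list only if no midpoint of the other list lay within 1000 bp either. Computation used Python 3.11.15, numpy 2.4.6, pandas 2.3.3, scipy 1.17.1 and matplotlib 3.10.9. Overlap and assignment were tested on simulated data. Named were all members, the 4 genes with the most peaks in each further list, every Jak or Stat gene with a peak, and genes with the same counts as the member with the most. The members and lists were chosen with earlier results of these data known. A planned search of protein sequences for the WSXWS motif was not run. Other genes are named as neighbours, as members of a small count, or because they had no peak, after their values were seen.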

Additional observations from a re-analysis of the deposited data

How the results depend on the processing

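Across 7 alternatives, 44 of 49 recomputed counts stayed within 1.5 times the reported count. A fall from 6 to 4 lies at that limit and was counted as within it. Keeping the wider part of each list by the median width left 5 conventional peaks (10 as reported) and 5 Treg peaks (8 as reported) at the receptor genes, 3 genes with a peak in both lists (Il2ra, Il21r and Il6st, against 5), and 5 other cytokine receptors with a peak (8 as reported). The same setting left 4 genes with a conventional peak and 4 with a Treg peak (6 each as reported). This setting removes the Il7r peak and the other 3 conventional-only peaks by its construction. Assignment to the nearest start site within 100 kb also left 3 genes with a peak in both lists, and 4 with a Treg peak. The pairs near Il4ra and Il6ra went to Il21r and She in that setting. Il2rb, without a start site in the table, entered that setting with both ends of its span. With a limit of 20 kb, or all peaks within 10 kb of a span, Il6st kept 0 conventional peaks and 1 Treg peak. With lists of equal length 7 conventional and 8 Treg peaks remained, and 5 genes kept a conventional peak (6 as reported). By width the Il7r peak ranks 3759 in the conventional list, beyond the length of the Treg list, 3402 peaks. Neither a required overlap of 50% of the narrower peak nor a match of midpoints within 1000 bp changed the 6 overlapping peaks in each list. The 20 kb limit and the 10 kb count each left 4 overlapping peaks in each list. The wider part of each list left 5 overlapping conventional and 4 overlapping Treg peaks. The 5 include the Il4ra peak of 428 bp. Its Treg partner, 263 bp wide, is below the Treg median of 366 bp, so that overlap was counted against the full Treg list. No paired analysis was possible because each group has 1 library. Depth is unknown, so no missing peak can be read as an absence of binding.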

Other observations

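Some peaks close to the receptor genes belonged to their neighbours. Upstream of Il4ra, at Nsmce1, lay 2 conventional-only peaks, chr7:125488543-125489412 and chr7:125491005-125491779, at 63294 and 60879 bp from the Il4ra span. The first lay inside Nsmce1 and the second across the end of its span. They were 870 and 775 bp wide, wider than any peak assigned to a receptor gene and above the list median of 428 bp. The nearest Treg midpoints were 14139 and 16554 bp away. A conventional peak and a Treg peak further into Nsmce1, 390 and 403 bp wide, overlapped, and the nearest Treg midpoint was that of a Treg-only peak there, chr7:125474714-125474963, 250 bp wide. Near Il2rb, 2 peaks of C1qtnf6 and 1 of Rac2, which encodes a small GTPase of blood cells, were each present in both lists with midpoints 2, 28 and 13 bp apart. All were chosen for mention with their values in view.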
